A study of Saccharomyces cerevisiae with 25 samples.

Results

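The 10 ergosterol synthesis genes of Saccharomyces cerevisiae followed here were HMG1, HMG2, ERG1, ERG11, ERG25, ERG6, ERG2, ERG3, ERG5 and UPC2. They were chosen by their ORF identifiers, 10 of the 6696 ORFs counted. No measured value was part of the rule, but earlier results of these data were known when it was set. Their mRNA was measured by RNA-seq in 12 libraries, and the ribosomes on that mRNA by ribosome profiling in 13, in which RNase leaves only the stretch held by each ribosome, its footprint. Tunicamycin (Tm), given at 1 µg/mL, blocks the N-glycosylation of proteins in the ER and so brings on the unfolded protein response (UPR). Wild-type W303 cells were collected before the drug (0 h) and 1, 2 and 4 h into the treatment. The eS7A-4KR and eS7A-WT strains were harvested 4 h and 0 h after Tm. Both eS7A strains descend from W303, lack the chromosomal genes of the ribosomal protein eS7A and its paralog eS7B, and carry HA-tagged eS7A on the centromeric plasmid pRS315 under the eS7A promoter, so that all eS7 came from the plasmid. All strains were MATa with the markers ade2, his3, leu2, trp1, ura3 and can1, and the deletions were made with HisMX6 and natNT2. In eS7A-4KR the 4 lysines of eS7A that can be ubiquitinated are arginines, and in eS7A-WT they are kept. There were 2 replicates of most groups in each assay. The exceptions were the treated W303 cells, with 1 library per assay and time, and eS7A-WT at 0 h, for which 1 RNA-seq library was analysed.

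Ergosterol is the sterol of fungal membranes and is made mostly at the ER, the compartment that Tm disturbs. Hmg1 and Hmg2 are the isozymes of HMG-CoA reductase, which makes mevalonate and is the main control point of the pathway. Erg1, the squalene epoxidase, opens the part of the pathway that is specific to sterols and uses oxygen. Erg11 (lanosterol 14α-demethylase, the target of azole drugs), Erg25 (C-4 methyl sterol oxidase), Erg6 (C-24 methyltransferase), Erg2 (C-8 isomerase), Erg3 (C-5 desaturase) and Erg5 (C-22 desaturase) then convert lanosterol to ergosterol. Erg11, Erg25, Erg3 and Erg5 are oxygen-dependent and contain heme or iron. Upc2 is a transcription factor that binds sterols and turns on many of these genes when ergosterol runs low.

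In the RefSeq annotation (assembly R64), HMG1 (YML075C) lies on chromosome XIII at 115734 to 118898 and HMG2 (YLR450W) on chromosome XII at 1032627 to 1035764. ERG1 (YGR175C) and ERG25 (YGR060W) are both on chromosome VII, at 846933 to 848423 and at 610564 to 611493, and ERG11 (YHR007C) is on chromosome VIII at 120091 to 121683. ERG6 (YML008C, 251839 to 252990), ERG2 (YMR202W, 667537 to 668205) and ERG5 (YMR015C, 300869 to 302485) are on chromosome XIII, as HMG1 is. ERG3 (YLR056W) is on chromosome XII at 253861 to 254958 and UPC2 (YDR213W) on chromosome IV at 889751 to 892492. For all 10 genes the annotated span equals the length of the ORF, and reads were counted only within the ORF. Reads that fit both HMG1 and HMG2, which are paralogs, could have been counted for either. The RNA-seq kit was stranded, and how strand entered the counting is not given in the sources used here.

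The libraries held 3423907 to 33858553 footprints and 28309641 to 49246452 RNA-seq reads. RPS7B, the gene of eS7B, had 48 to 370 RNA-seq reads in the 7 libraries of the eS7A strains, against 694 to 9949 in the 5 W303 libraries. Footprints counted for it were 393 to 9994 in the eS7A strains and 291 to 10327 in W303, and the part of reads shared with its paralog RPS7A in them was not tested. All 8 UPR target genes examined, such as KAR2, the ER Hsp70, rose at the mRNA level in every strain and at every time after Tm, with a median log2 change of 2.24, 2.63 and 2.30 in W303 at 1, 2 and 4 h, 1.99 in eS7A-4KR and 2.40 in eS7A-WT. Changes were scaled by TMM, which sets the bulk of ORFs to no change. Scaling by total counts moved the median mRNA change of all genes by 0.07, 0.46 and 0.71 on the log2 scale in W303 at 1, 2 and 4 h, by 0.16 in eS7A-4KR and by 0.62 in eS7A-WT, and the median footprint change by 0.16, 0.57, 0.95, 0.15 and 0.82 in the same order. For the difference of the changes, eS7A-4KR minus eS7A-WT, it moved the median by -0.46 in mRNA and -0.67 in footprints. Between these strains the moves were 0.011 and 0.58 at 0 h, and -0.45 and -0.095 at 4 h, in mRNA and footprints. Changes and strain differences below are therefore relative to the bulk of ORFs. These cultures do not tell less mRNA in every cell from fewer cells that express a gene.

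Before Tm most of the enzymes were among the more abundant mRNAs of W303, while HMG2 was near the middle and UPC2 low. Levels are given as reads per kilobase of ORF counted, scaled to TMM library sizes (RPKM), so that genes can be compared. ERG11 had the highest mRNA level, 660.5 and 626 RPKM in the replicates of W303 at 0 h, above ERG25 with 537 and 558 and ERG2 with 487 and 543, which overlapped. ERG3 (353 and 370.0), ERG1 (329 and 295) and ERG6 (324 and 292) followed, and ERG1 and ERG6 overlapped. ERG5 (121 and 119) and HMG1 (115 and 113) were lower and lay close to each other, HMG2 had 32.2 and 31.2, and UPC2 had 9.63 and 11.3. In percentiles of 5526 ORFs, the 7 ERG genes stood between 84.1 (ERG5) and 95.1 (ERG11), HMG1 at 83.4, HMG2 at 54.8 and UPC2 at 17.7.

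**Figure D1:**
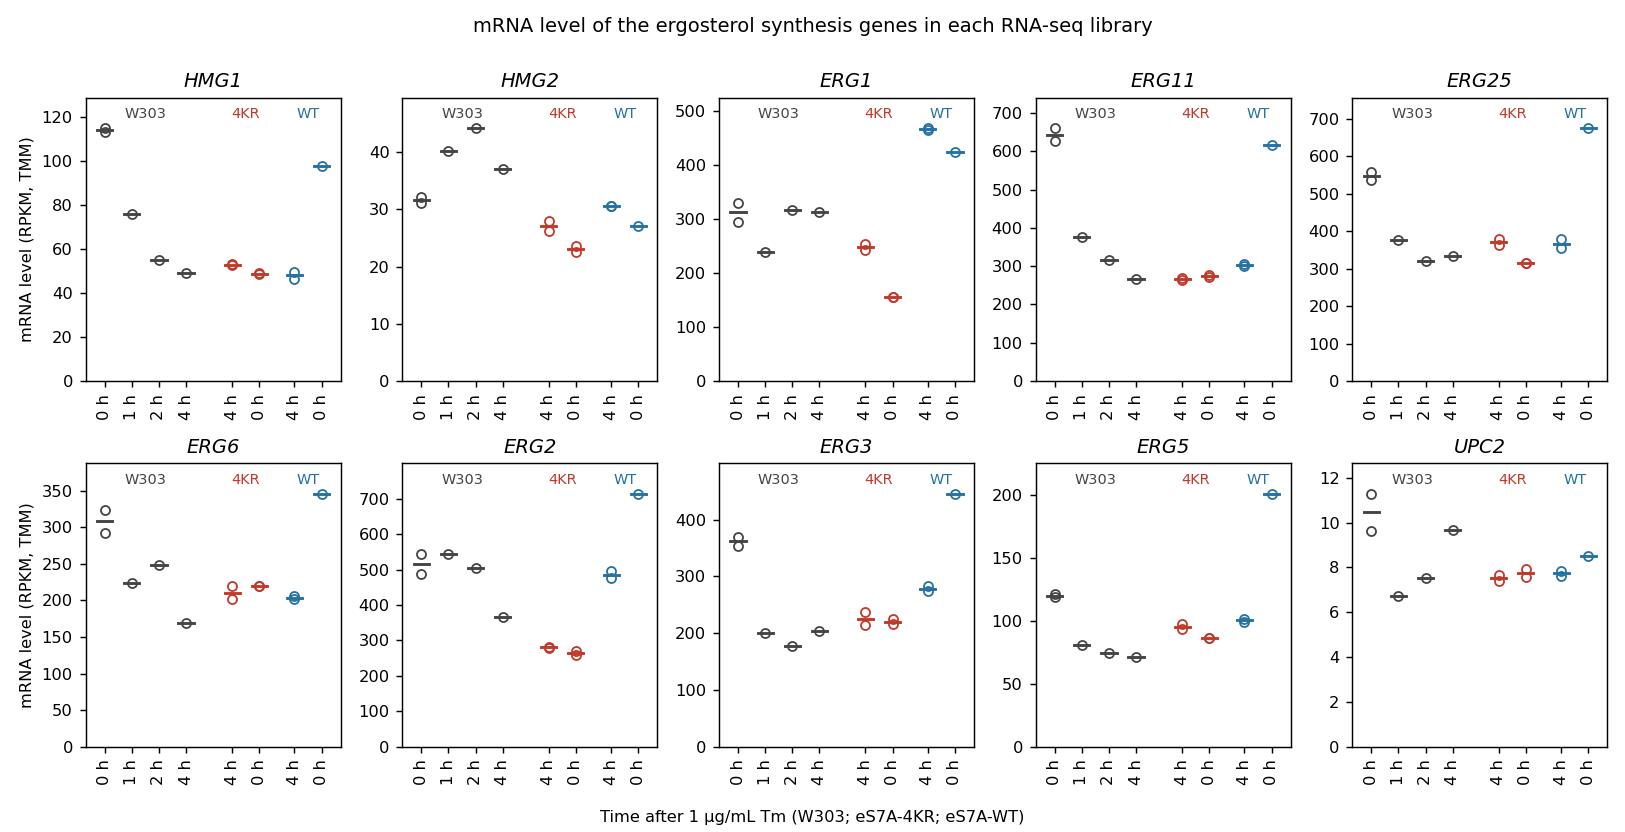
mRNA level (RPKM, linear axes from 0) of each gene in each RNA-seq library, as open circles with the group mean as a line. W303 is shown at 0, 1, 2 and 4 h, then eS7A-4KR and eS7A-WT at 4 h and 0 h. HMG1, ERG11, ERG25 and ERG5 were low in both eS7A-4KR groups and in eS7A-WT at 4 h and high in eS7A-WT at 0 h, where 1 library was analysed, while HMG2 and UPC2 did not show this arrangement.

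In W303, the mRNAs of most of the enzymes fell within 1 h of Tm, and the enzymes that fell were spread over the pathway from HMG1 to ERG5. At 1 h, 7 of the 10 genes passed the test (adjusted p below 0.01), all lower, at 2 h 6 were lower and 1, HMG2, higher, and at 4 h 7 were lower. DESeq2 called 5 lower at 1 h, without ERG6 and UPC2, 5 lower and none higher at 2 h, without UPC2 and HMG2, and 7 lower at 4 h. Over all 5392 ORFs tested, 18.5%, 33.8% and 36% were called lower and 18.3%, 35.8% and 37.6% higher at 1, 2 and 4 h. The median log2 change of the 10 genes was -0.57, -0.58 and -0.70, against 0.00064, 0.04 and 0.04 over all ORFs. Each treated time has 1 library per assay, so the spread was estimated from the replicates at 0 h and borrowed across genes, and the p-values carry no measure of how treated cultures vary. In no strain was it counted how many of all ORFs had treated libraries outside the untreated range. Lying outside that range does not set these genes apart from other ORFs.

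Of the HMG-CoA reductase paralogs, HMG1 fell at each time and HMG2 was called higher at 2 h by edgeR and not by DESeq2. HMG1 had 115 and 113 RPKM before Tm, 75.8 after 1 h, 55.0 after 2 h and 49.0 after 4 h, so that each treated library was below both untreated ones. The log2 change of HMG1 was -0.61 ± 0.11, -1.06 ± 0.11 and -1.19 ± 0.11 after 1, 2 and 4 h (SE, adjusted p = 0.00035, 3.9e-07 and 8.4e-08). HMG2, the isozyme that is degraded when intermediates of the pathway accumulate, had 32.2 and 31.2 RPKM before Tm, 40.2 after 1 h, 44.2 after 2 h and 37.0 after 4 h. Its log2 change at 2 h passed the edgeR test (0.48 ± 0.10, adjusted p = 0.00034) and was 0.43 by DESeq2 (adjusted p = 0.045), and its changes of 0.33 ± 0.10 at 1 h and 0.25 ± 0.10 at 4 h missed the threshold (adjusted p = 0.012 and 0.028).

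ERG1, the first oxygen-dependent step, was not called at any time. Its mRNA had 329 and 295 RPKM before Tm, 239 after 1 h, 317.5 after 2 h and 313 after 4 h, so that only the 1 h library lay outside the untreated range. The log2 change was -0.40 ± 0.12 at 1 h (adjusted p = 0.014), 0.02 ± 0.12 at 2 h and 0.03 ± 0.12 at 4 h (adjusted p = 0.89 and 0.82).

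ERG11 had the largest fall among the 10 genes at 4 h. Its mRNA level was 660.5 and 626 RPKM before Tm, 377 after 1 h, 317 after 2 h and 267 after 4 h, each treated time below the one before it. The log2 change was -0.79 ± 0.12, -1.02 ± 0.12 and -1.25 ± 0.12 at 1, 2 and 4 h (SE, adjusted p = 9.0e-05, 1.8e-06 and 1.8e-07). ERG25 had its lowest value in the 2 h library, with 537 and 558 RPKM before Tm, 376 after 1 h, 320.1 after 2 h and 335 after 4 h, and treated times were not tested against each other. Its log2 change was -0.56 ± 0.12, -0.78 ± 0.12 and -0.68 ± 0.12, and the last of these, called lower with TMM, was 0.032 with total counts.

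The later steps differed in when they fell. ERG6, the methyltransferase that gives ergosterol its side chain methyl group, had 324 and 292 RPKM before Tm, 224 after 1 h, 248 after 2 h and 169 after 4 h, with log2 changes of -0.48 ± 0.12, -0.32 ± 0.12 and -0.84 ± 0.12, of which the value at 2 h was not called (adjusted p = 0.027). The call at 1 h (adjusted p = 0.0043) was lost with DESeq2 and without either footprint replicate of W303 at 0 h (adjusted p = 0.011, 0.017 and 0.018). ERG2 was the latest of the 10, with 487 and 543 RPKM before Tm, 543 after 1 h, 504 after 2 h and 367 after 4 h. Its log2 change was 0.06 ± 0.12 at 1 h and -0.04 ± 0.12 at 2 h, and -0.46 ± 0.12 at 4 h (adjusted p = 0.0024), where it was called lower with TMM and was 0.25 with total counts.

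ERG3 and ERG5, the desaturases of the sterol ring and side chain, were already low at 1 h. ERG3 had 353 and 370.0 RPKM before Tm, 200.2 after 1 h, 178 after 2 h and 204 after 4 h, a log2 change of -0.87 ± 0.12, -1.03 ± 0.12 and -0.80 ± 0.12. ERG5 had 121 and 119 RPKM before Tm, 80.8 after 1 h, 74.3 after 2 h and 71.4 after 4 h, a log2 change of -0.59 ± 0.11, -0.69 ± 0.11 and -0.72 ± 0.11. All 6 of these changes passed the test with TMM. With total counts the 4 h changes were -0.087 for ERG3, -0.0068 for ERG5 and -0.13 for ERG6, and the median of all genes was 0.748.

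UPC2 was called lower at 1 and 2 h and not at 4 h. Its mRNA had 9.63 and 11.3 RPKM before Tm, 6.715 after 1 h, 7.54 after 2 h and 9.65 after 4 h. The log2 change was -0.66 ± 0.15 at 1 h (adjusted p = 0.0016), -0.48 ± 0.14 at 2 h (adjusted p = 0.0063) and -0.09 ± 0.14 at 4 h (adjusted p = 0.55). UPC2 was the least abundant of the 10 mRNAs, and DESeq2 called it neither at 1 h nor at 2 h (adjusted p = 0.071 and 0.12). Without replicate 2 of the RNA-seq at 0 h its change at 2 h was -0.35, no longer called.

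**Figure D2:**
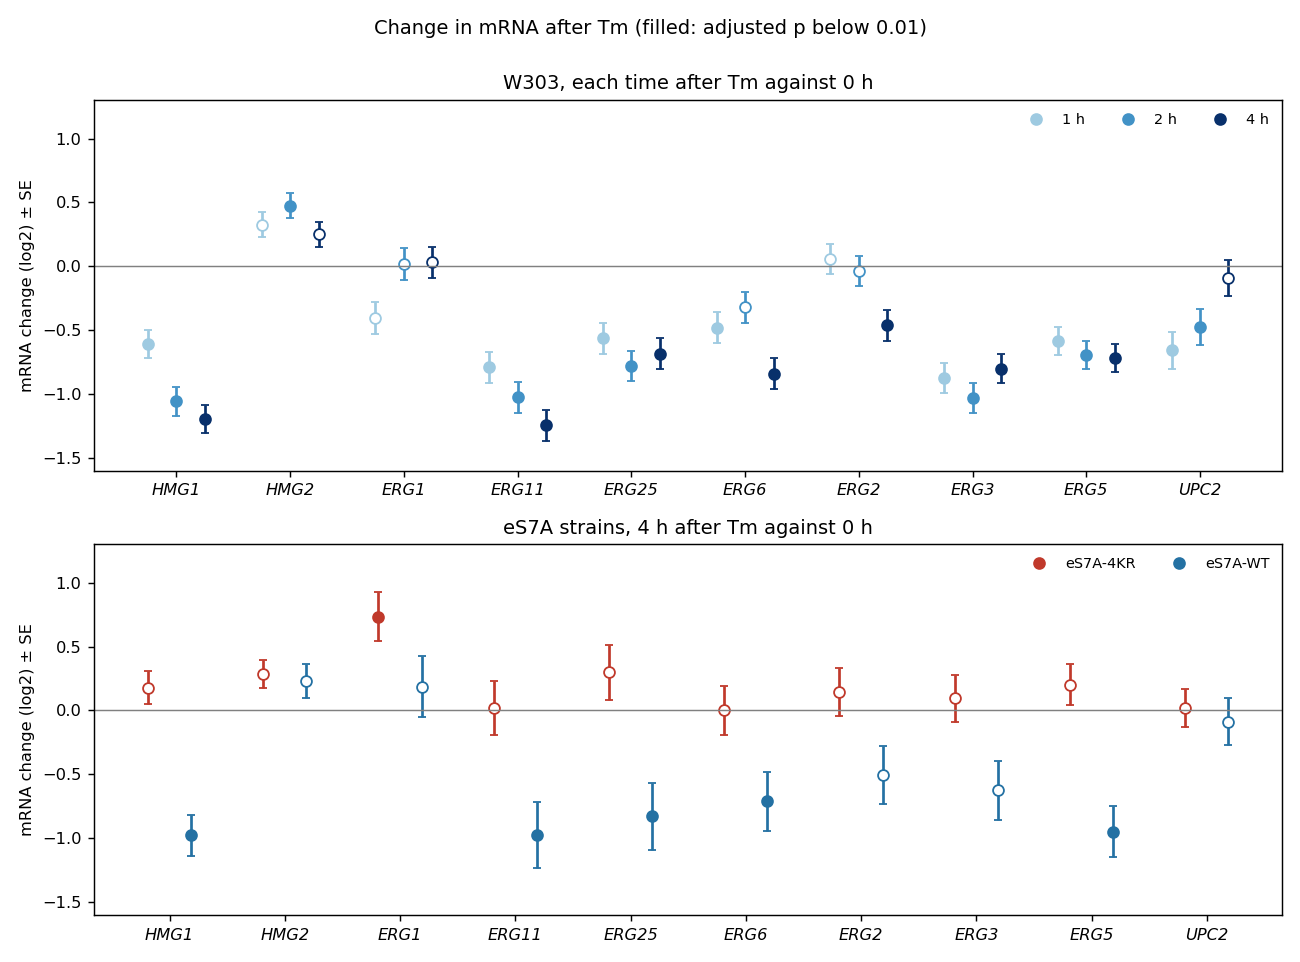
Log2 change in mRNA after Tm with its standard error, filled where the adjusted p was below 0.01. In W303 (above) HMG1, ERG11, ERG25, ERG3 and ERG5 were called lower at 1, 2 and 4 h, with ERG25 and ERG2 at 4 h changing sign when total counts replaced TMM. The 4 h changes of ERG3, ERG5 and ERG6 were then -0.087, -0.0068 and -0.13. In the eS7A strains (below) 5 genes were called lower in eS7A-WT and 1, ERG1, higher in eS7A-4KR.

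The eS7A strains ask whether this response depends on the ubiquitinated lysines of eS7A. In eS7A-4KR, ERG1 alone of the 10 passed the test at the mRNA level after 4 h of Tm, higher, while in eS7A-WT 5 were called lower, namely HMG1, ERG11, ERG25, ERG6 and ERG5. Over all 5558 ORFs tested, 13.5% were called lower and 17.3% higher in eS7A-4KR, against 29.1% lower and 30.6% higher in eS7A-WT. The median log2 change of the 10 genes was 0.16 in eS7A-4KR and -0.67 in eS7A-WT, against 0.0021 and 0.04 over all ORFs. With a replicate term for the footprint libraries, which pair by number, 4 genes were called in eS7A-4KR (also ERG25, HMG2 and ERG5, higher) and 7 in eS7A-WT (also ERG3 and ERG2, lower). The shares of all ORFs given here are from the fit without this term. Without any 1 of the 4 RNA-seq libraries of eS7A-4KR the call of ERG1 was lost, and without replicate 1 or replicate 2 of the RNA-seq of eS7A-WT at 4 h 2 genes were called in eS7A-WT. In the same strain 3 were called without replicate 1 of the RNA-seq of eS7A-4KR at 0 h or replicate 2 at 4 h.

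HMG1 fell in eS7A-WT and was not called in eS7A-4KR. It had 52.9 and 52.75 RPKM at 4 h against 48.5 and 48.9 at 0 h in eS7A-4KR, and 46.5 and 49.5 at 4 h against 97.85 in the library at 0 h in eS7A-WT. The log2 change was 0.18 ± 0.13 in eS7A-4KR (adjusted p = 0.28) and -0.98 ± 0.16 in eS7A-WT (SE, adjusted p = 4.6e-06). HMG2 had 28.0 and 26.15 RPKM at 4 h against 23.6 and 22.6 at 0 h in eS7A-4KR, and 30.6 and 30.6 at 4 h against 27.1 at 0 h in eS7A-WT. Its log2 change was 0.29 ± 0.11 in eS7A-4KR and 0.23 ± 0.13 in eS7A-WT, neither called.

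ERG1 was called in eS7A-4KR and not in eS7A-WT. It had 253 and 242 RPKM at 4 h against 155 and 155 at 0 h in eS7A-4KR, with no overlap, and 465 and 468 at 4 h against 425 at 0 h in eS7A-WT. Its log2 change was 0.73 ± 0.19 in eS7A-4KR (adjusted p = 0.0037) and 0.19 ± 0.24 in eS7A-WT (adjusted p = 0.50).

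The demethylation enzymes were likewise called in eS7A-WT alone. ERG11 had 263 and 270.0 RPKM at 4 h against 277 and 272 at 0 h in eS7A-4KR, and 300.5 and 306 at 4 h against 617 at 0 h in eS7A-WT, a log2 change of 0.02 ± 0.21 and -0.97 ± 0.26 (adjusted p = 0.96 and 0.0015). ERG25 had 379 and 364.5 RPKM at 4 h against 316 and 315 at 0 h in eS7A-4KR, and 355 and 379 at 4 h against 676 at 0 h in eS7A-WT, a log2 change of 0.30 ± 0.21 and -0.83 ± 0.26 (adjusted p = 0.27 and 0.0057). In both genes the untreated library of eS7A-WT stood above all 6 others of the eS7A strains.

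So were ERG6 and ERG5 among the later enzymes. ERG6 had 219 and 202 RPKM at 4 h against 220.0 and 219 at 0 h in eS7A-4KR, and 202 and 205 at 4 h against 346 at 0 h in eS7A-WT. ERG5 had 93.5 and 97.2 RPKM at 4 h against 86.5 and 86.2 at 0 h in eS7A-4KR, and 102 and 99.3 at 4 h against 201 at 0 h in eS7A-WT. In eS7A-WT, ERG6 changed by -0.71 ± 0.23 and ERG5 by -0.95 ± 0.20 on the log2 scale (adjusted p = 0.0081 and 0.00011), and in eS7A-4KR they changed by -0.00013 ± 0.19 and 0.20 ± 0.16 (adjusted p = 1 and 0.32).

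ERG2 and ERG3 had lower levels in eS7A-WT at 4 h than at 0 h that did not pass the test. ERG2 had 283 and 278 RPKM at 4 h against 258.5 and 270.0 at 0 h in eS7A-4KR, and 475 and 496 at 4 h against 714 at 0 h in eS7A-WT, a log2 change in eS7A-WT of -0.50 ± 0.23 (adjusted p = 0.048). ERG3 had 237 and 215 RPKM at 4 h against 216 and 225 at 0 h in eS7A-4KR, and 274 and 283 at 4 h against 445 at 0 h in eS7A-WT, a log2 change in eS7A-WT of -0.63 ± 0.23 (adjusted p = 0.016). UPC2, with 7.395 and 7.655 RPKM at 4 h against 7.55 and 7.92 at 0 h in eS7A-4KR and 7.83 and 7.64 at 4 h against 8.50 at 0 h in eS7A-WT, changed in neither strain by more than its error.

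Tested as the difference of the changes, eS7A-4KR minus eS7A-WT, 3 genes passed at the mRNA level, all with a higher value in eS7A-4KR, against 19.3% of all ORFs called higher and 15.5% called lower. HMG1 differed by 1.16 ± 0.21 on the log2 scale, ERG5 by 1.15 ± 0.26 and ERG25 by 1.13 ± 0.34 (SE, adjusted p = 4.7e-05, 0.00057 and 0.0072). The estimates for ERG11, ERG6, ERG2 and ERG3 were 0.99 ± 0.34, 0.71 ± 0.30, 0.65 ± 0.29 and 0.72 ± 0.29, and their adjusted p of 0.017, 0.056, 0.072 and 0.047 missed the threshold. For ERG1 the difference was 0.55 ± 0.31 and for HMG2 and UPC2 it was 0.06 ± 0.17 and 0.11 ± 0.24. The median of the 10 differences was 0.72, against -0.04 over all ORFs. With the replicate term for the footprints, or with the RNA-seq libraries fitted alone, 8 of the 10 were called, all but HMG2 and UPC2. The share of all ORFs called under these settings is not given, so the added calls do not set these genes apart. The RNA-seq replicates of the eS7A strains lay close together for these genes, with ratios of replicate 2 to replicate 1 of 0.906 to 1.07, and the joint fit estimates 1 spread for RNA-seq and footprints together.

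The strains already differed before Tm, in the same 0 h libraries against which the changes above were taken. At 0 h, 7 of the 10 mRNAs of eS7A-4KR were lower than those of eS7A-WT and none was higher, against 21.3% of all ORFs lower and 21% higher. The log2 difference was -1.50 ± 0.24 for ERG1, -1.48 ± 0.23 for ERG2, -1.26 ± 0.20 for ERG5, -1.21 ± 0.26 for ERG11, -1.14 ± 0.26 for ERG25, -1.06 ± 0.23 for ERG3 and -1.05 ± 0.16 for HMG1 (SE, adjusted p between 6.0e-06 and 0.00057). ERG6 (-0.70 ± 0.23, adjusted p = 0.013), HMG2 (-0.27 ± 0.13) and UPC2 (-0.18 ± 0.18) were not called. The median of the 10 was -1.10, against -0.01 over all ORFs, and with the replicate term for the footprints or with RNA-seq alone 9 were called, all but UPC2. The share of all ORFs called under these settings is not given here.

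The untreated levels of HMG1, ERG11, ERG25, ERG6, ERG3 and ERG5 in eS7A-4KR were near the treated levels in eS7A-WT. The mRNA level of HMG1 was 48.5 and 48.9 RPKM in eS7A-4KR at 0 h and 46.5 and 49.5 in eS7A-WT at 4 h, and that of ERG25 was 316 and 315 in eS7A-4KR at 0 h and 355 and 379 in eS7A-WT at 4 h. ERG1 and ERG2 were farther apart, with 155 and 155 RPKM of ERG1 in eS7A-4KR at 0 h and 465 and 468 in eS7A-WT at 4 h. The RNA-seq of eS7A-WT at 0 h rests on 1 library. Its HMG1 (97.85 RPKM) and ERG11 (617) were below W303 at 0 h, with 115 and 113 of HMG1 and 660.5 and 626 of ERG11. HMG2 and UPC2 were below W303 too. The remaining genes were above W303, among them ERG5 (201 against 121 and 119) and ERG2 (714 against 487 and 543). ERG1 (425 against 329 and 295) and ERG25 (676 against 537 and 558) were also above it. No test was made between W303 and the eS7A strains.

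After 4 h of Tm the strains were close with TMM, except for ERG1 and ERG2. ERG1 mRNA of eS7A-4KR was below that of eS7A-WT by a log2 difference of -0.95 ± 0.19 and ERG2 by -0.82 ± 0.19 (adjusted p = 0.00019 and 0.00053). The other 8 genes differed by -0.34 (ERG3) to 0.11 (HMG1) and were not called, while 22.6% of all ORFs were called lower and 27.1% higher. The replicate term for the footprints gave 5 called genes, ERG11, ERG3 and HMG2 in addition, with log2 differences of -0.22, -0.34 and -0.21. The shares of all ORFs are from the fit without that term. With total counts the differences ran from -1.40 (ERG1) to -0.34 (HMG1), with -0.78 for ERG3, and 7 genes were called. The median of all genes was then -0.452.

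**Figure D3:**
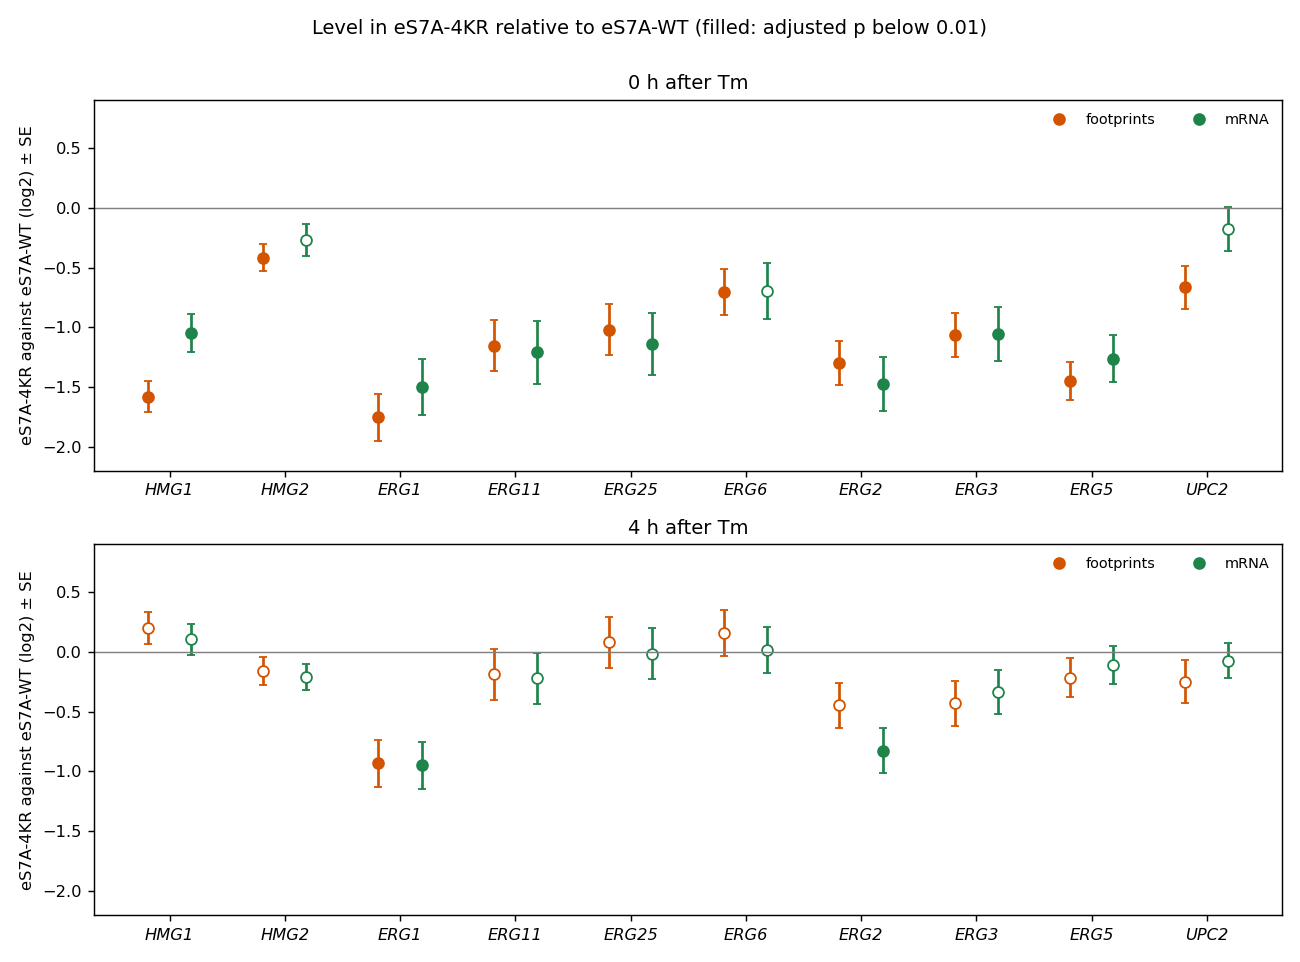
Log2 difference of eS7A-4KR against eS7A-WT in footprints and mRNA, with its standard error, at 0 h (above) and 4 h (below), filled where the adjusted p was below 0.01. All 20 values at 0 h lie below 0, from -1.75 for footprints of ERG1 to -0.18 for mRNA of UPC2, with HMG2 footprints changing sign when total counts replaced TMM. At 4 h, with TMM, only ERG1 (both assays) and ERG2 (mRNA) were called.

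Footprints, the measure of ribosomes on each mRNA, followed the mRNA. In W303, 5, 6 and 7 of the 10 genes were called lower in footprints at 1, 2 and 4 h and none higher, against 16.5%, 30.7% and 32.6% of all ORFs called lower. HMG1 had 103 and 107 RPKM of footprints before Tm, 67.55 after 1 h, 49.6 after 2 h and 43.55 after 4 h, and ERG11 had 727 and 759 before Tm, 459 after 1 h, 380.3 after 2 h and 343 after 4 h. At 4 h the footprint log2 change was -1.30 ± 0.12 for HMG1, -1.15 ± 0.12 for ERG11 and -1.13 ± 0.12 for ERG2. The falls of ERG3, ERG5, ERG6 and ERG25 at 4 h, called at -0.85 to -0.69 with TMM, were 0.10 to 0.27 with total counts, that is above 0 but below the shift of 0.95 in the median of all genes. HMG2, ERG1 and UPC2 were not called in footprints at any time.

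The footprints of the demethylation and later enzymes had their lowest value at different times. Each treated time is 1 library, and the treated times were not tested against each other. ERG25 had 933 and 998 RPKM before Tm, 627 after 1 h, 520.5 after 2 h and 613 after 4 h. ERG3 had 512 and 502.5 before Tm, 256 after 1 h, 241 after 2 h and 288 after 4 h, and ERG5 had 194 and 189.5 before Tm, 111 after 1 h, 117 after 2 h and 114 after 4 h. In these genes each treated library was below both untreated ones, which was not counted over all ORFs. ERG6, with 511.5 and 555 before Tm, 454 after 1 h, 505 after 2 h and 329 after 4 h, was called at 4 h alone. ERG1 had 400.3 and 427.5 RPKM before Tm, 343 after 1 h, 408 after 2 h and 412 after 4 h, so that its libraries at 2 and 4 h lay within the untreated range. HMG2 had 23.05 and 20.1 before Tm and 25.04 to 26.4 at the treated times. UPC2 had 6.28 and 4.95 before Tm and 3.32 to 4.36 at the treated times, all below the untreated libraries, from few footprints.

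In the eS7A strains the footprint contrast was wider for HMG1. In eS7A-4KR, HMG1 had 49.4 and 51.9 RPKM of footprints at 4 h against 38.7 and 38.7 at 0 h, and in eS7A-WT 46.1 and 41.2 at 4 h against 108 and 125 at 0 h. The footprint log2 change was 0.40 ± 0.13 in eS7A-4KR (adjusted p = 0.015) and -1.39 ± 0.13 in eS7A-WT (adjusted p = 9.0e-10). ERG1 was again the one gene called higher in eS7A-4KR, at 332 and 414 RPKM at 4 h against 183 and 218 at 0 h, a log2 change of 0.91 ± 0.19 (adjusted p = 0.00051), and in eS7A-WT it had 619 and 793 at 4 h against 584 and 775.5 at 0 h. In eS7A-WT, 7 genes were called lower, all of the enzymes but HMG2 and ERG1, against 34.9% of all ORFs, and in eS7A-4KR 18.1% of all ORFs were called higher. ERG11 had 413 and 536 RPKM of footprints at 4 h against 369 and 521 at 0 h in eS7A-4KR, and 456 and 615 at 4 h against 867 and 1125 at 0 h in eS7A-WT. ERG25 had 720.5 and 964 at 4 h against 604 and 821 at 0 h in eS7A-4KR, and 665 and 916 at 4 h against 1217 and 1691 at 0 h in eS7A-WT. ERG2 had 289 and 385 at 4 h against 316 and 414 at 0 h in eS7A-4KR, and 389.6 and 523 at 4 h against 761 and 1045 at 0 h in eS7A-WT. In these genes the times overlapped in eS7A-4KR and did not overlap in eS7A-WT. The same was true of ERG6 and ERG3, while ERG5 did not overlap in either strain, with 171 and 207 RPKM at 4 h against 136 and 159 at 0 h in eS7A-4KR, and 200.9 and 235.5 at 4 h against 354 and 455 at 0 h in eS7A-WT. How many of all ORFs did not overlap in each strain was not counted, so overlap does not set these genes apart from other ORFs. ERG3, one of the 7 called in eS7A-WT, changed by -0.77 ± 0.19 with TMM and by 0.059 with total counts. Without replicate 2 of the footprints of eS7A-WT at 0 h, or replicate 1 at 4 h, 4 of the 7 were called. With the replicate term, 5 were called higher in eS7A-4KR, the added genes being UPC2, HMG1, ERG5 and ERG25. The 34.9% and 18.1% of all ORFs above are from the fit without it.

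The difference of footprint changes, eS7A-4KR minus eS7A-WT, passed for 6 genes, all with a higher value in eS7A-4KR, against 22.9% of all ORFs called higher. It was 1.78 ± 0.19 for HMG1, 1.23 ± 0.23 for ERG5 and 1.10 ± 0.30 for ERG25 on the log2 scale (SE, adjusted p = 1.5e-08, 7.0e-05 and 0.0033), and 0.97, 0.86 and 0.85 for ERG11, ERG6 and ERG2 (adjusted p = 0.0087, 0.0091 and 0.0084). With total counts the differences of ERG11, ERG6 and ERG2 were 0.31, 0.19 and 0.17, and the median of all genes was -0.715. These 3 genes were near the threshold, and without any 1 of the 6 replicated RNA-seq libraries 3 genes were called, HMG1, ERG5 and ERG25. Without replicate 1 of the footprints of eS7A-4KR at 0 h or of eS7A-WT at 4 h, or replicate 2 of eS7A-4KR at 4 h or of eS7A-WT at 0 h, HMG1 and ERG5 alone were called. With the replicate term 8 were called, ERG1 and ERG3 in addition. All shares of all ORFs in this paragraph are from the fit without this term. At 0 h all 10 genes had fewer footprints in eS7A-4KR than in eS7A-WT and all 10 were called, against 26.5% of all ORFs called lower, with log2 differences of -1.75 ± 0.19 (ERG1) to -0.42 ± 0.11 (HMG2, which was 0.16 with total counts). At 4 h ERG1 alone was called (-0.93 ± 0.19, adjusted p = 0.00020), against 25.7% of all ORFs called lower, and the replicate term added ERG3, ERG5 and ERG2.

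In each of the 4 footprint groups of the eS7A strains, 7 or 8 of the 10 genes were higher in replicate 2 than in replicate 1. Replicate 2 over replicate 1 had a median ratio of 1.23 to 1.31 over the 10 genes, against 0.981 to 1.03 over all ORFs, with HMG2 and UPC2 lower in replicate 2 in each group. As a share of all footprints the 10 genes were nearly equal between replicates, at 0.395% and 0.406% at 4 h against 0.314% and 0.308% at 0 h in eS7A-4KR, and at 0.509% and 0.514% at 4 h against 0.469% and 0.463% at 0 h in eS7A-WT. In W303 the share was 0.416% and 0.419% before Tm, 0.313% after 1 h, 0.393% after 2 h and 0.478% after 4 h, while their footprints fell relative to the bulk of ORFs. Of all RNA-seq reads the share in W303 was 0.337% and 0.308% before Tm, 0.236% after 1 h, 0.2975% after 2 h and 0.321% after 4 h. It was 0.207% and 0.192% at 4 h against 0.151% and 0.156% at 0 h in eS7A-4KR. In eS7A-WT it was 0.340% and 0.348% at 4 h against 0.336% at 0 h.

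**Figure D4:**
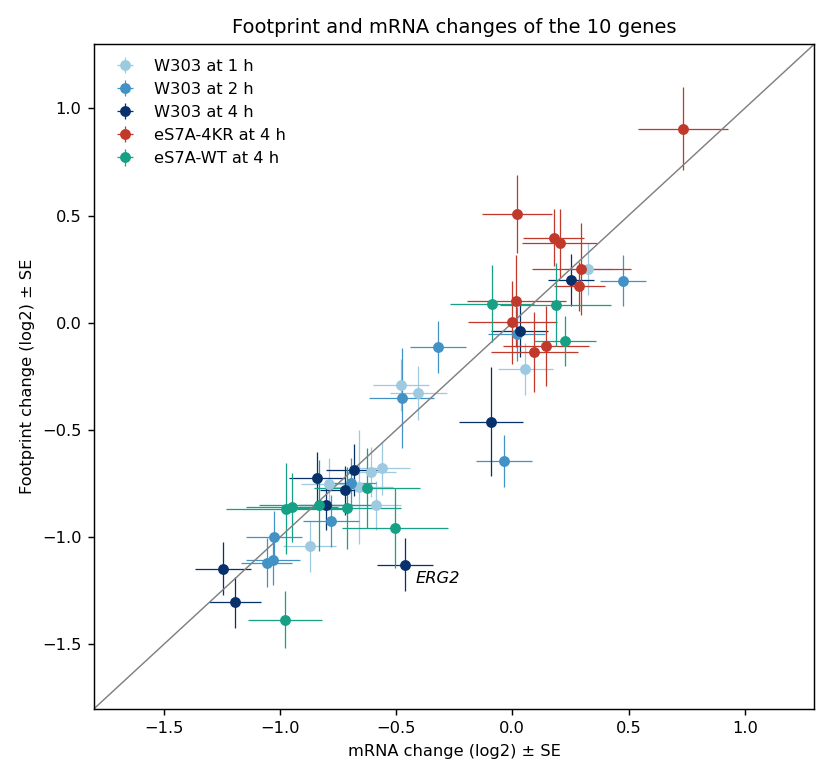
Footprint change against mRNA change (both log2, with standard errors) of the 10 genes in the 5 comparisons with 0 h. The line marks equal change. ERG2 in W303 at 4 h, at -0.46 in mRNA and -1.13 in footprints, lies farthest below the line.

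Translational efficiency (TE), the footprint level relative to the mRNA level of the same gene, did not pass the test for any of the 10 genes in any of the 8 comparisons by edgeR or by DESeq2. At an unadjusted p below 0.05 the number of genes was 0, 1 and 1 in W303 at 1, 2 and 4 h, 1 in eS7A-4KR, 0 in eS7A-WT, 1 for the difference of the changes, and 1 and 0 for eS7A-4KR against eS7A-WT at 0 h and 4 h. In the same order, 533, 1117 and 1320 of all 5392 ORFs had such a p in W303. Of all 5558 ORFs of the eS7A fit, 633, 1127, 550, 1264 and 1399 had it. Over all ORFs, TE was called (adjusted p below 0.01) in either direction for 0.0927%, 2.32% and 3.95% in W303, 0.9% in eS7A-4KR, 4.41% in eS7A-WT, 0.63% for the difference of the changes, and 2.41% and 4.62% between the strains at 0 h and 4 h. In most genes the TE change was small, between -0.11 and 0.11 in W303 at 4 h for all but ERG2 and UPC2.

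ERG2 came nearest to the threshold. Its TE log2 change in W303 was -0.27 ± 0.17, -0.61 ± 0.17 and -0.67 ± 0.17 after 1, 2 and 4 h (SE, adjusted p = 0.71, 0.049 and 0.024), and without replicate 2 of the RNA-seq at 0 h it was called at 2 h and at 4 h. ERG2 footprints were 699 and 702 RPKM before Tm, 628 after 1 h, 459 after 2 h and 327 after 4 h, so that they were lower from 2 h on, when its mRNA was still at 504 RPKM. Its TE change was -0.25 ± 0.26 in eS7A-4KR and -0.45 ± 0.29 in eS7A-WT, and in eS7A-WT the replicate term called it lower. HMG1 had the widest TE contrast between the strains, a difference of changes of 0.63 ± 0.28 (adjusted p = 0.42). This difference was called with the replicate term for footprints, chosen after seeing the data. A replicate term in both assays did not call it. The TE of HMG1 at 0 h was lower in eS7A-4KR by a log2 difference of -0.53 ± 0.21 (adjusted p = 0.12), and was called with the footprint term. The replicate term also called the TE of ERG2 higher in eS7A-4KR at 4 h, by 0.38.

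As a ratio of mean levels, TE set the members apart from each other in every strain and time. At 0 h in W303 it was 1.76 for ERG25, 1.73 for ERG6 and 1.6 for ERG5, against a median of 0.971 over all ORFs, and 0.681 for HMG2 and 0.537 for UPC2, at percentiles 27.7 and 18.0 of all ORFs. ERG25 and ERG6 were between percentiles 88.5 and 96.3 in all 8 combinations of strain and time. HMG2 and UPC2 were between percentiles 8.67 and 36.2. These ratios are descriptions per length, and no test was made between genes.

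**Figure D5:**
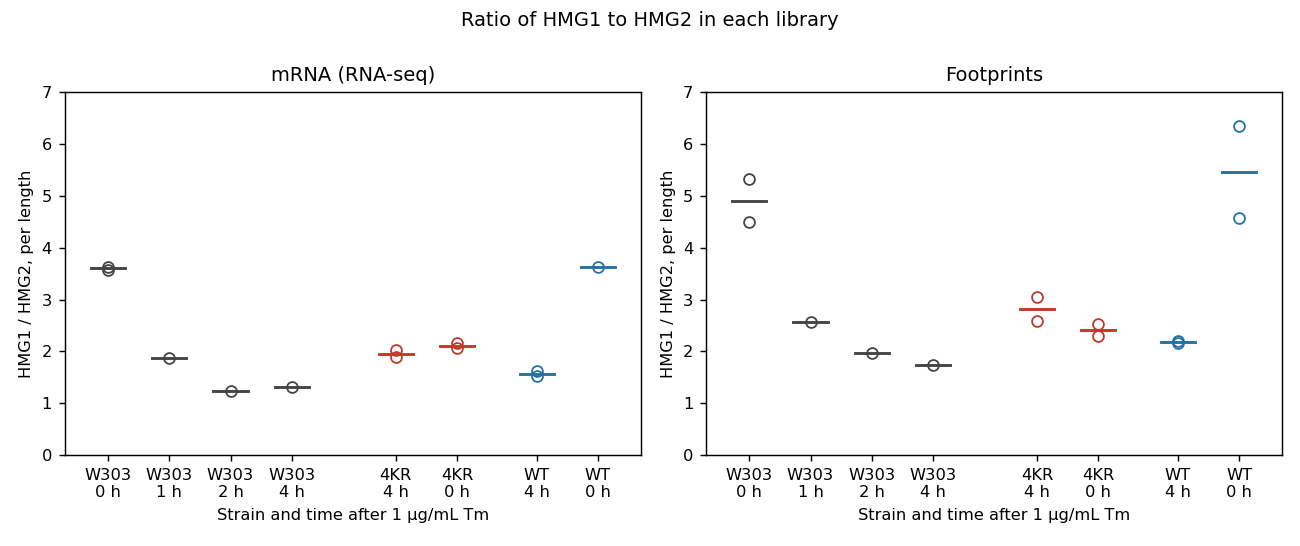
Ratio of HMG1 to HMG2 (RPKM over RPKM) in each library, as circles with the mean of each group as a line, for mRNA (left) and footprints (right). In mRNA it was 3.57 and 3.63 in W303 and 3.62 in eS7A-WT at 0 h, and lay between 1.24 and 2.16 in all other libraries.

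The balance of the HMG-CoA reductase isozymes shifted with Tm in W303 and in eS7A-WT, where HMG1 mRNA fell and HMG2 mRNA was not called lower. The mRNA ratio of HMG1 to HMG2 was 3.57 and 3.63 before Tm, 1.88 after 1 h, 1.24 after 2 h and 1.32 after 4 h in W303. In eS7A-4KR it was 1.89 and 2.02 at 4 h against 2.06 and 2.16 at 0 h, and in eS7A-WT 1.52 and 1.62 at 4 h against 3.62 at 0 h. The footprint ratio was at 4.49 and 5.32 in W303 at 0 h and 1.74 at 4 h, at 2.59 and 3.04 in eS7A-4KR at 4 h against 2.29 and 2.52 at 0 h, and at 2.17 and 2.20 in eS7A-WT at 4 h against 4.57 and 6.34 at 0 h. A ratio within a library does not depend on the scaling. It shows unequal change of the paralogs, and no test was made on it.

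Of the 15 other enzymes of the pathway, which run from acetyl-CoA to ergosterol, some were called higher and others lower in W303. In W303, 2 were called higher and 3 lower at 1 h, 7 higher and 5 lower at 2 h, and 3 higher and 7 lower at 4 h, with medians of -0.10, 0.09 and 0.0050 on the log2 scale. Over all ORFs 18.3%, 35.8% and 37.6% were called higher and 18.5%, 33.8% and 36% lower at these times. ERG4, the last reductase of the pathway, fell most at 4 h (log2 change -1.63 ± 0.11). ERG24, the C-14 reductase, changed by -1.39 ± 0.10, NCP1, the reductase that passes electrons to Erg11 and Erg5, by -1.24 ± 0.11 and IDI1, the isopentenyl diphosphate isomerase, by -1.04 ± 0.10, all 3 called lower. In eS7A-4KR edgeR called none of the 15 at 4 h and DESeq2 called 1, 5 having an unadjusted p below 0.05 by edgeR. Of all 5558 ORFs, 2835 had such an unadjusted p. In eS7A-WT 5 were called lower, among them ERG4 (-1.67 ± 0.18), ERG24 (-1.29 ± 0.13), NCP1 (-0.80 ± 0.16) and IDI1 (-1.14 ± 0.19). Of all ORFs, 29.1% were called lower in eS7A-WT. The difference of the changes was called for 5, all higher in eS7A-4KR, with 1.39 ± 0.23 for ERG4, against 19.3% of all ORFs called higher. At 0 h 10 of the 15 were lower in eS7A-4KR and none was higher, against 21.3% of all ORFs lower and 21% higher. The median was -0.82, beside -1.10 for the 10 members. At 4 h 7 were lower and 2 higher, against 22.6% and 27.1% of all ORFs. By edgeR TE was called for 1 gene of the list, ERG27, in W303 at 4 h (-0.87 ± 0.17, adjusted p = 0.0043), which DESeq2 did not call. DESeq2 called 1 gene of the list lower in TE between the strains at 0 h and 1 at 4 h.

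Regulators of the pathway had no common direction. In W303 at 4 h, HRD1 (1.61 ± 0.10) and HRD3 (1.10 ± 0.09), subunits of the ubiquitin ligase that degrades Hmg2, and DAP1, a heme protein that supports Erg11 (1.56 ± 0.13), rose, and SUT1, a regulator of sterol uptake (-1.72 ± 0.17), fell. Of the 10 regulators 4 were called higher and 2 lower at that time, 4 and 0 in eS7A-4KR, and 3 and 3 in eS7A-WT. The shares of all ORFs higher and lower were 37.6% and 36%, 17.3% and 13.5%, and 30.6% and 29.1% in the same order. NSG1, which stabilises Hmg2, had a called fall in TE in W303 at 4 h (-0.78 ± 0.16) and in eS7A-WT (-0.78 ± 0.18). DESeq2 called 1 regulator in TE in eS7A-WT and none in W303 at 4 h.

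Genes of sterol uptake and of the anaerobic cell wall, several of which Upc2 is known to activate, are expressed little in air. Of 8, the count filter left 4 in the W303 fit and 6 in that of the eS7A strains. TIR1 and TIR3, cell wall mannoproteins, were called lower in W303 at 4 h, with log2 changes of -2.78 ± 0.29 and -2.18 ± 0.24. In eS7A-4KR their changes were -0.30 ± 0.26 and -0.31 ± 0.24, and in eS7A-WT -3.14 ± 0.26 and -2.29 ± 0.27, called in eS7A-WT. The transporters AUS1 and PDR11 changed by 0.16 ± 0.11 and -0.18 ± 0.17 in W303 at 4 h, neither called. In eS7A-4KR none of the 6 passed the test by edgeR or DESeq2, with 1 at an unadjusted p below 0.05, while 3 were called lower in eS7A-WT. Of all 5558 ORFs, 2835 had such an unadjusted p in eS7A-4KR. Of all ORFs, 13.5% were called lower in eS7A-4KR and 29.1% in eS7A-WT.

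Among 7 genes of sterol esters and acetylation, 3 were called higher and 4 lower in W303 at 4 h, 3 and 0 in eS7A-4KR, and 2 and 3 in eS7A-WT. The shares of all ORFs higher and lower were 37.6% and 36%, 17.3% and 13.5%, and 30.6% and 29.1% in the same order. ATF2, which acetylates sterols, had a log2 change of -2.83 ± 0.12 in W303 at 4 h, of -0.26 ± 0.15 in eS7A-4KR and of -1.99 ± 0.17 in eS7A-WT, the first and the last of them called. YEH1, a steryl ester hydrolase, was called higher in eS7A-4KR (0.47 ± 0.11) and lower in eS7A-WT (-0.71 ± 0.14), a difference of 1.19 ± 0.18. SAY1, the deacetylase that opposes Atf2, rose in W303 at 4 h (1.34 ± 0.14), as did ARE2, a sterol acyltransferase (0.75 ± 0.12), and YEH2, the paralog of YEH1, fell (-1.33 ± 0.12). TE of ATF2 was lower in W303 at 2 h (-0.99 ± 0.19), and between the strains at 0 h the TE of ATF2 (-1.59 ± 0.24) and of YEH1 (-1.14 ± 0.19) was lower in eS7A-4KR. DESeq2 called 2 genes of the list lower in TE at 0 h and none in W303 at 2 h.

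Of 6 genes that respond to heme and oxygen, 3 were called higher and 2 lower in W303 at 4 h, 1 and 1 in eS7A-4KR, and 1 and 2 in eS7A-WT. The shares of all ORFs higher and lower were 37.6% and 36%, 17.3% and 13.5%, and 30.6% and 29.1% in the same order. ANB1, an anaerobic form of eIF5A, had a log2 change of -2.09 ± 0.24 in W303 at 4 h, of 0.15 ± 0.31 in eS7A-4KR and of -2.25 ± 0.29 in eS7A-WT. At 0 h ANB1 mRNA of eS7A-4KR differed from that of eS7A-WT by a log2 value of -2.24 ± 0.30. In W303 at 4 h, COX5B, a subunit of cytochrome c oxidase, and CYC7, an isoform of cytochrome c, rose (1.31 ± 0.14 and 2.57 ± 0.30), and CYC1, the main cytochrome c, fell (-0.81 ± 0.10). Heme, oxygen and sterol levels were not measured, and their part in the results was not tested.

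Across the 8 combinations of strain and time, the mRNA profiles of 7 of the enzymes, HMG1, ERG11, ERG25, ERG6, ERG2, ERG3 and ERG5, each correlated with the mean of the other enzymes at a Pearson r of 0.787 to 0.927, while r was 0.522 for ERG1, 0.381 for UPC2 and -0.10 for HMG2. These values describe 8 group means that share normalization and, in part, control libraries. The genes outside the 10 whose mRNA profile was most like the mean of the 9 enzymes were VMA22, THG1, CWC27, VMA11 and GPI15, with r of 0.987 to 0.948 among 5378 genes. For UPC2 they were PRP28, SSU1, RAD53, YSP2 and BUD14, with r of 0.907 to 0.857.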

How the data were processed

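RNA-seq reads and ribosome footprints were counted per ORF in 25 libraries. The authors deposited raw counts for 6696 ORFs beside the number of codons over which each ORF was counted. Footprints had been freed of duplicates by random barcodes and placed at the A-site of the ribosome. As tools, the submitters' processing notes name CASAVA 1.8, Bowtie2 2.0.6, TopHat2 2.0.7 and sacCer3. Gene names and coordinates came from a RefSeq table of assembly R64, which matched 6008 ORFs.

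Counts were fitted in R 4.3.3 with edgeR 4.0.16 (older quasi-likelihood method, TMM within assay) on every ORF whose mean count reached 10 in both assays, in 1 fit of the 10 W303 libraries and 1 of the 15 eS7A libraries. The 5392 and 5558 ORFs tested left 2 and 7 residual degrees of freedom. TE was the footprint change minus the mRNA change. P-values were adjusted by Benjamini-Hochberg over all ORFs, and 0.01 was the threshold. The labels give replicate numbers only, while the authors describe 2 independent biological replicates for both assays. P-values measure the spread between these libraries only.

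Same-numbered footprint libraries of the eS7A strains deviated together (r = 0.473 to 0.638 over 6 pairs of groups), and the RNA-seq libraries did not (r = -0.341 to 0.0306 over 3). A replicate term for footprints was therefore fitted as an alternative. This term, and fits of each assay alone, were chosen after seeing the data. Other alternatives were DESeq2 1.42.0, its size factors, total counts, no filter, the newer quasi-likelihood method, all 25 libraries in 1 fit, and leaving out each replicated library.

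The 10 genes and the other lists were chosen with earlier results of these data known. All 10 are described, and of each other list at most 4 genes, those with the smallest adjusted p in mRNA in W303 at 4 h, beside any called in TE. YEH1 was also described in mRNA after its values were seen. A planned count of promoter motifs was not run, and sequences are not analysed here.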

Additional observations from a re-analysis of the deposited data

Results flagged for a closer look

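The response to Tm differed between the strains for 6 of the 10 genes, by the edgeR test of the difference of the changes, eS7A-4KR minus eS7A-WT, on the log2 scale. Over all ORFs, 19.3% were called higher by this test in mRNA and 22.9% in footprints. At the mRNA level the difference was 1.16 for HMG1, 1.15 for ERG5 and 1.13 for ERG25. In footprints it was 1.78 for HMG1, 1.23 for ERG5, 1.10 for ERG25, 0.97 for ERG11, 0.86 for ERG6 and 0.85 for ERG2. All 9 differences had the same sign, and the libraries at 0 h, where eS7A-4KR already had less mRNA and fewer footprints of these genes, enter each of them. The footprint count of 6 was 3 without any 1 of the 6 replicated RNA-seq libraries of the eS7A strains, and 2 without replicate 1 of the footprints of eS7A-4KR at 0 h or of eS7A-WT at 4 h, or replicate 2 of eS7A-4KR at 4 h or of eS7A-WT at 0 h. It was 3 with DESeq2 size factors and 2 with footprints alone. With total counts the mRNA differences of HMG1, ERG5 and ERG25 were 0.70, 0.69 and 0.67, and the median of all genes was -0.5. The footprint differences were then 1.08, 0.54 and 0.43 for these genes and 0.31, 0.19 and 0.17 for ERG11, ERG6 and ERG2. Their all-gene median was -0.715.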

How the results depend on the processing

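Counts here are of the 10 genes called, and the share of all ORFs called under each alternative setting is not given. Of 82 called changes, 78 kept direction and call with DESeq2, 79 with its size factors, 82 with the newer quasi-likelihood method, 79 with no filter, 74 with all 25 libraries in 1 fit and 76 with each assay alone, and none reversed under these. With total counts 49 kept both, 25 lost the call and 8 reversed. The reversed changes were 0.25 for ERG2 and 0.032 for ERG25 in mRNA in W303 at 4 h, 0.27 for ERG25, 0.10 for ERG3, 0.17 for ERG5 and 0.23 for ERG6 in footprints in W303 at 4 h, 0.059 for ERG3 in footprints in eS7A-WT, and 0.16 for HMG2 in footprints between the strains at 0 h. Total counts moved the median of all genes too, so these 8 stayed below that median.

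In mRNA, total counts gave 4 called genes in eS7A-4KR, 3 in eS7A-WT and 7 between the strains at 4 h. In footprints they gave 5 in eS7A-4KR, 3 in eS7A-WT, 2 in W303 at 4 h and 5 between the strains at 4 h, and in TE 5 between the strains at 0 h and 4 at 4 h. The footprint count in eS7A-4KR was 2 with DESeq2 and 2 with all 25 libraries, and that in W303 at 1 h was 3 with all 25. The difference of footprint changes gave 3 genes with DESeq2 size factors and 2 with footprints alone. RNA-seq alone gave 4 genes in eS7A-4KR, 8 for the difference of changes and 5 between the strains at 4 h.

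The replicate block changed no call among the 43 called changes of the eS7A strains and added others. With the block for footprints only, mRNA gave 4 genes in eS7A-4KR, 8 for the difference of changes and 5 between the strains at 4 h, footprints gave 5 in eS7A-4KR and 4 between the strains at 4 h, and TE gave 1 in eS7A-WT, 1 for the difference of changes and 1 at each of 0 h and 4 h. With the block in both assays these were 3, 8 and 4 in mRNA, 5 and 4 in footprints, and 1 in eS7A-WT and 1 at each time in TE. A block that joined the footprint and RNA-seq library of 1 culture by number called 0 genes in TE in any comparison, as did the fit without it.

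Without 1 replicate at a time, the footprint counts ranged over 1 to 2 in eS7A-4KR, 4 to 7 in eS7A-WT and 2 to 8 for the difference of changes, and the mRNA counts over 0 to 1 in eS7A-4KR, 2 to 6 in eS7A-WT and 2 to 4 for the difference of changes. TE in W303 at 2 h and at 4 h ranged over 0 to 1. Where a group was left with 1 library, that library was assumed to vary like the other groups. UPC2, with 51 to 378 footprints per library, had the least depth.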
